A study of Mus musculus with 2 samples.

Results

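The genes described here are 37 genes of the complement and coagulation systems, chosen by symbol from a list of named members, and all 37 were among the 35602 gene symbols of the count table. Complement is a cascade of secreted proteases that tags cells for removal, releases the small peptides C3a and C5a that call in myeloid cells, and can build a pore in a target membrane. Host cells are shielded from it by regulators on their surface. Coagulation is a second protease cascade, started by tissue factor and ending in thrombin and fibrin, and plasminogen activators dissolve the clot again. In tumours, macrophages are a main source of C1q, many other members are also made by the liver, and the urokinase system is known for its part in tissue invasion.

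Breast tumour tissue of mice was compared between intraperitoneal injection of a PD-1 inhibitor and the same injection together with acupuncture, the insertion of needles at set points of the body. PD-1 is a receptor that restrains activated T cells. Each treatment had 1 library, so both libraries share the inhibitor, no untreated tumour is included, and acupuncture without the inhibitor was not among the groups. The labels name no strain, age, tumour line, dose or time, and do not say whether animals were pooled.

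The inhibitor library held 105728292 counts and the acupuncture library 60752043. With 1 library a group there is no replicate check and no test between groups, so every statement concerns these 2 libraries. Levels are counts per 1000000 (CPM) of library sizes scaled by TMM, a factor that centres most genes. Where 2 levels are given, the inhibitor library comes first and the acupuncture library second. A ratio is acupuncture over PD-1 inhibitor alone, and the 95% interval after it is an exact Clopper-Pearson interval that covers counting error only. A gene is called higher or lower when the ratio was at least 2-fold either way and the interval excluded 1. In bulk tissue, fewer cells of a type and less RNA per cell cannot be told apart.

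Of the 37 genes, 5 were higher with acupuncture, 3 were lower and 29 lay between. Across all 18687 genes whose counts in both libraries summed to 20 or more, 9.21% were higher and 4.9% lower, against 13.5% and 8.11% of the 37, so the members' shares stood near or a little above the background. The median log2 ratio of the members was 0.02, against 0.0003 over all genes tested. The higher genes were C2 and the inhibitors Cd55, Cd59a, Cfi and Thbd. The lower genes were C5ar1, F7 and F10. Together the members took 0.40% of counts with the inhibitor alone and 0.41% with acupuncture.

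**Figure D1:**
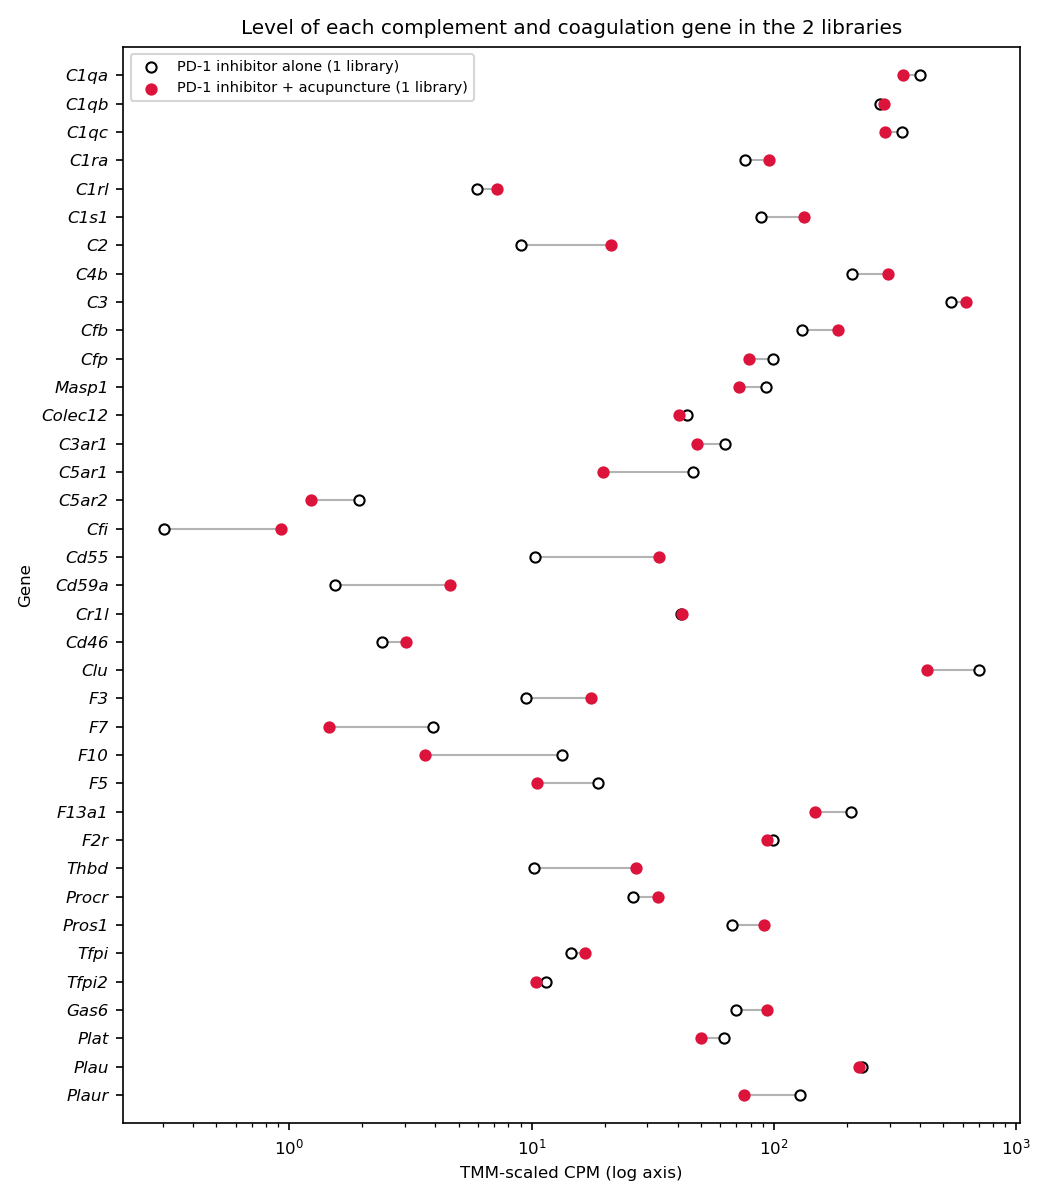
Level of each gene in TMM-scaled CPM on a log axis, with an open circle for the inhibitor library and a filled circle for the acupuncture library. The long connecting lines belong to Cfi, Cd55, Cd59a, C2 and Thbd, with the filled circle to the right, and to F10, F7 and C5ar1, with the filled circle to the left.

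Markers of several tissues and cell types differed between the libraries, and these values belong beside each result. All 10 adipocyte, 10 skeletal muscle, 10 B cell and 10 T cell markers were higher with acupuncture, and 7 of 8 lymph node stroma markers were. Of 12 neutrophil markers 7 were lower, and of 7 platelet and megakaryocyte markers tested 4 were lower. Summed CPM went from 437 to 1871 for the adipocyte list, from 11.9 to 152 for the B cell list and from 220 to 26.7 for the neutrophil list. For skeletal muscle it went from 227 to 2149, for T cells from 26.9 to 143 and for platelets from 64.4 to 21.4. The lymph node stroma list went from 28.5 to 213, with Glycam1 at 0.0392 and 78.2 CPM. The part of these cells in the results below was not tested. Ratios to a single marker such as Csf1r or Pecam1 are given as descriptions. They depend on the marker chosen, since both the macrophage and the endothelium list held ratios on either side of 1. Of 10 hepatocyte markers 7 had enough counts, 2 of them were higher and none lower, and the summed CPM was 27.3 and 23.4. Most of that sum was Cyp2e1, at 26.0 and 18.6 CPM. Serpina1a was at 0.509 and 3.59 CPM, 7.05-fold higher, and Alb at 0.186 and 0.668 CPM, 3.59-fold higher, while Ttr had 0 counts in both libraries and Apoa1 had 2 and 0.

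**Figure D2:**
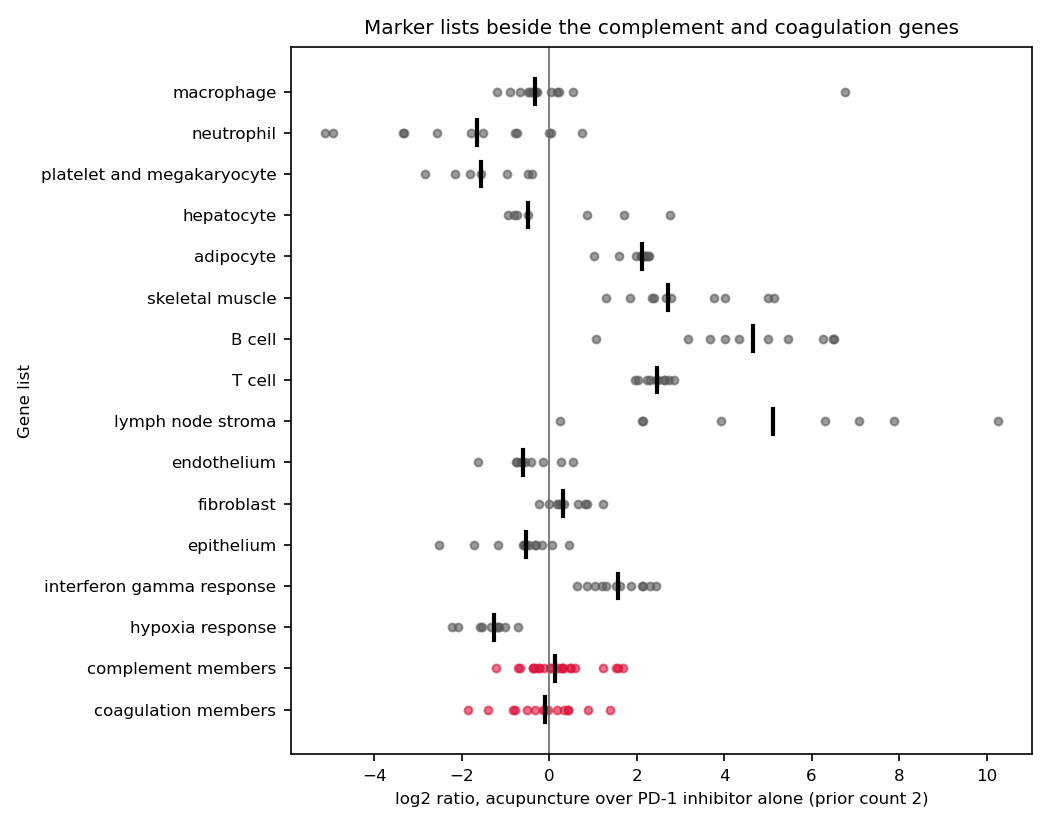
Log2 ratio, acupuncture over PD-1 inhibitor alone, of each measured gene in 14 marker and response lists (grey) and of the members (red), with the median of each list as a vertical bar. The members centre near 0, at 0.13 for complement and -0.08 for coagulation, while the adipocyte, muscle, B cell, T cell and lymph node lists lie to the right and the neutrophil, platelet and hypoxia lists to the left.

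The promoters of Cd55, Cd59a, C5ar1, F7 and F10 are shown because these are the members called higher or lower for which a RefSeq window was at hand. Those of tissue factor (F3) and the urokinase receptor (Plaur) are added, a choice made after values were seen, because both hold the letters of 1 motif while their ratios lay on opposite sides of 1. Each line gives the 200 bases before the start of the gene on its own strand, from RefSeq on GRCm38.p6, which is not the build of the counts. Capitals mark a match on either strand. The motifs were AP-1 (TGANTCA), the gamma-activated site (TTCNNNGAA), a short form of the interferon-stimulated response element (GAAANNGAA) and the core of the hypoxia response element (ACGTG).
Cd55, chr1:130462745-130462944, minus strand: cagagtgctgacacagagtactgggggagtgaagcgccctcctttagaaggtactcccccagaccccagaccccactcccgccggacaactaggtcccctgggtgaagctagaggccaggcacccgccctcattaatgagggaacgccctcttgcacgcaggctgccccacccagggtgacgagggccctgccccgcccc
Cd59a, chr2:104095601-104095800, plus strand: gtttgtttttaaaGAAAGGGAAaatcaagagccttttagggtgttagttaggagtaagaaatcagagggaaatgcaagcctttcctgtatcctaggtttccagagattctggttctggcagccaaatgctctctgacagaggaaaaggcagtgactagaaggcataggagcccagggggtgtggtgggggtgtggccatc
C5ar1, chr7:16259339-16259538, minus strand: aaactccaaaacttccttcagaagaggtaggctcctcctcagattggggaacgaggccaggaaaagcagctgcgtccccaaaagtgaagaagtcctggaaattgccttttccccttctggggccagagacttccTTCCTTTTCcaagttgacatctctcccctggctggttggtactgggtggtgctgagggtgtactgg
F7, chr8:13025834-13026033, plus strand: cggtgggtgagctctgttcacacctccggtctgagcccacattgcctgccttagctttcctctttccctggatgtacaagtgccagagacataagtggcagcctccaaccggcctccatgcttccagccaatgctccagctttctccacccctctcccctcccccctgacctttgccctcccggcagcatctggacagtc
F10, chr8:13037108-13037307, plus strand: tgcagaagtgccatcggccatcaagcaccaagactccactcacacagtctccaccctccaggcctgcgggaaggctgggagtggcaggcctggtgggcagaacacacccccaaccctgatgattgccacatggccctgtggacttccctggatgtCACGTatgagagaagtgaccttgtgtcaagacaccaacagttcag
F3, chr3:121723337-121723536, plus strand: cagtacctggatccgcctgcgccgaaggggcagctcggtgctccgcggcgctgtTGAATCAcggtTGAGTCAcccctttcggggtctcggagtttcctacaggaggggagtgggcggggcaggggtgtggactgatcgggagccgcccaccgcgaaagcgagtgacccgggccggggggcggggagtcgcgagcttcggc
Plaur, chr7:24462283-24462482, plus strand: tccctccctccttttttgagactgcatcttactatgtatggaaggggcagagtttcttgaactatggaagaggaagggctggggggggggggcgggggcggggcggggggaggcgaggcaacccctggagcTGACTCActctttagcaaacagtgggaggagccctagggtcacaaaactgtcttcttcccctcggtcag

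RefSeq windows were found for 26 of the 37 members, 32 windows in all, and the motifs were sought in the 250 bases before each start. AP-1 letters were in 6 member windows (18.8%), those of C3ar1, F2r, F3, Plaur, Procr and Tfpi2, against 6.75% of all 32851 windows. Of those 6 genes none was higher or lower by 2-fold, and F3 and Plaur, which both hold the letters, had ratios of 1.85 and 0.587. The gamma-activated letters were in 1 member window (Pros1; 7.02% of all windows) and the interferon-stimulated letters in 2 (C5ar1 and Cd59a, the first lower and the second higher; 7.13% of all). The hypoxia core was in 4 member windows (12.5%), those of C1rl, Cr1l, F10 and Tfpi2, against 16.6% of all. A match describes these letters and is not evidence of binding.

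The chains of C1q, the recognition molecule that starts the classical pathway, were among the most abundant members and differed little between libraries. C1qa was at 399 CPM with the inhibitor alone and 342 with acupuncture (ratio 0.859, 0.844 to 0.873). C1qb was at 275 and 285 CPM (1.04, 1.02 to 1.06) and C1qc at 338 and 287 CPM (0.848, 0.833 to 0.864). These 3 genes lie next to one another in the genome, with no other protein-coding gene between them. Within a library, the count of C1qc over C1qa was 0.849 and 0.839, while that of C1qb over C1qa went from 0.690 to 0.833, so C1qb stood apart from its partners by 1.21-fold (1.18 to 1.24).

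Set per kilobase of exon, C1qa led the 37 genes in both libraries, at 383 and 329 CPM per kilobase, and C1qb followed at 253 and 262. Clu and C1qc were next with the inhibitor alone, at 204 and 175, whereas with acupuncture C1qc at 149 was above Clu at 124. The macrophage list, which holds no member, had 1 of 15 genes higher and 1 lower, with a median log2 ratio of -0.32. Its summed CPM was 3256 and 2741. The count of C1qa over that of the macrophage receptor Csf1r was 2.18 and 2.33, a ratio of 1.07 (1.04 to 1.10).

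The classical proteases and their substrates all had ratios above 1. C1ra and C1s1, the proteases carried by C1q, were at 76.0 and 94.96 CPM (1.25, 1.21 to 1.29) and at 88.5 and 133 CPM (1.499, 1.45 to 1.54). C1rl, a C1r-like protease, was at 5.96 and 7.18 CPM (1.21, 1.07 to 1.36). C4b, the thioester protein that C1s cleaves, was at 209 and 296 CPM (1.42, 1.39 to 1.45). None of these 4 reached 2-fold. Of 10 fibroblast markers 1 was higher and none lower, and 9 had ratios above 1, with a median log2 ratio of 0.31. The summed CPM of that list was 7492 and 10128, and its part in these 4 values was not tested. Reads of C1ra, C1s1 and C4b may be shared with their close copies C1rb, C1s2 and C4a. C1rb and C1s2, which lie beside C1ra and C1s1, had ratios of 1.22 and 1.29.

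C2, the protease partner of C4b in the classical C3 convertase, was at 9.04 and 21.2 CPM, 2.34-fold higher (2.15 to 2.55). Its neighbour and counterpart in the alternative pathway, Cfb, was at 131 and 184 CPM (1.40, 1.37 to 1.44). C2 and Cfb are adjacent, with 5 protein-coding genes between Cfb and C4b. The 3 genes did not share 1 ratio, since the count of C2 over Cfb went from 0.0691 to 0.115, a 1.67-fold difference (1.53 to 1.82). The interferon gamma response list, with Gbp2 among its most abundant genes, had 10 of 12 genes higher in the same library, with a median log2 ratio of 1.58 and summed CPM of 1077 and 3140. Its part in the ratios of C2 and Cfb was not tested.

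C3, the central component cleaved by both convertases, was at 540 and 621 CPM (1.15, 1.13 to 1.16). Properdin, Cfp, which stabilises the alternative convertase and is made by myeloid cells, was at 98.8 and 79.2 CPM (0.801, 0.774 to 0.829). The count of Cfp over that of the macrophage receptor Csf1r was 0.540 and 0.539 (ratio 0.999, 0.957 to 1.04), a value for this 1 marker. Factor D, Cfd, the adipocyte-rich protease that cleaves factor B, was at 124 and 208 CPM (1.68, 1.64 to 1.72), below the summed ratio of 4.28 for the adipocyte list. Cfd falls outside the rule for named genes and was chosen after its values were seen.

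The lectin pathway members had ratios below 1 under the main scaling and above 1 when the epithelial markers were set to a median of 0. Masp1, a protease of that pathway, was at 92.3 and 71.9 CPM (0.779, 0.752 to 0.808), and Colec12, a membrane collectin and scavenger receptor, at 43.9 and 40.6 CPM (0.924, 0.879 to 0.970). Under the epithelial scaling they were at 1.13 for Masp1 and 1.34 for Colec12. The mannose-binding lectins Mbl1 and Mbl2, chiefly liver products, had 0 counts in both libraries, which allows up to 0.0294 and 0.0477 CPM.

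The receptors for the anaphylatoxins all had ratios below 1 under the main scaling. C5ar1, the main receptor for C5a on neutrophils and macrophages, was at 46.2 and 19.8 CPM, 2.34-fold lower (2.19 to 2.49). C5ar2, the second C5a receptor, was at 1.94 and 1.22 CPM (0.631, 0.478 to 0.825). C3ar1, the receptor for C3a, was at 62.7 and 48.3 CPM (0.770, 0.737 to 0.804). With the epithelial markers set to a median of 0, C5ar1 was at 0.620 and no longer lower by 2-fold, and C3ar1 turned to 1.12.

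The receptors for C5a and C3a did not move in parallel. The count of C5ar1 over C3ar1 was 0.737 and 0.409, 1.80-fold lower (1.67 to 1.94), a value that does not depend on library scaling. Against Csf1r, C5ar1 was 1.87-fold lower (1.75 to 2.01) and C3ar1 stood at 0.960 times (0.913 to 1.01). Csf1r is 1 of 15 macrophage markers, of which 5 had ratios above 1 and 10 below. Mertk was at 0.438, close to C5ar1, and Siglec1 at 1.45, so these values hold for Csf1r only. The neutrophil list, with S100a9 at 111 and 3.16 CPM, S100a8 at 45.5 and 1.46 and Csf3r at 33.8 and 11.8, was lower in the same library (7 of 12 genes, median log2 ratio -1.65), and its part in the C5ar1 value was not tested. C5 itself, listed as Hc, the precursor of C5a, was at 3.29 and 0.779 CPM, 4.23-fold lower (3.12 to 5.83).

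Of the 6 complement regulators among the members 3 (50%) were higher with acupuncture and none lower, against 9.21% and 4.9% of all genes tested. With 6 genes these shares are coarse. The summed CPM of the 6 went the other way, from 757 to 510, with Clu at 701 and 426. Cd55, the membrane protein that breaks up C3 convertases, was at 10.3 and 33.6 CPM, 3.25-fold higher (3.02 to 3.51). Cd59a, which blocks the membrane pore, was at 1.54 and 4.61 CPM, 2.997-fold higher (2.46 to 3.66). Factor I, Cfi, the protease that degrades C3b and C4b, had 31 and 58 counts, or 0.304 and 0.922 CPM, 3.04-fold higher (1.93 to 4.86). Cfi rests on few counts and leaves the list at a count minimum of 100. In the same library all adipocyte, skeletal muscle, B cell and T cell markers were higher and 7 of 12 neutrophil markers were lower. The part of these cells in the Cd55, Cd59a and Cfi values was not tested.

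None of the remaining regulators reached 2-fold. Cr1l, the rodent membrane inhibitor known as Crry, was at 41.2 and 41.7 CPM (1.01, 0.963 to 1.06), an interval that spans 1. Cd46, a cofactor for factor I, was at 2.40 and 3.02 CPM (1.26, 1.04 to 1.53). In CPM, Cr1l was above Cd55 in both libraries. Per kilobase of exon, Cd55 went from 2.13 to 6.93 CPM and Cr1l from 3.98 to 4.03, so their order differed between the libraries. That order rests on exon unions of 4853 bases for Cd55 and 10349 for Cr1l, which may differ from the transcripts present. The count of Cd55 over Cr1l went from 0.251 to 0.807, a 3.22-fold difference (2.95 to 3.52). Cd55 and Cd59a lie beside the copies Cd55b and Cd59b, with 0 and 16 counts for Cd55b and 23 and 30 for Cd59b, so reads may be split between them.

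Clusterin, Clu, a secreted chaperone that also restrains the membrane pore, had the highest CPM of the members with the inhibitor alone, 701, and stood at 426 with acupuncture (0.608, 0.599 to 0.616). That put it below C3 in CPM in the acupuncture library. The epithelium list had 3 of 13 genes lower and none higher, with a median log2 ratio of -0.54 and Krt8 at 1564 and 1060 CPM, and its part in the Clu value was not tested. With that list set to a median of 0, the log2 ratio of Clu was -0.18.

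**Figure D3:**
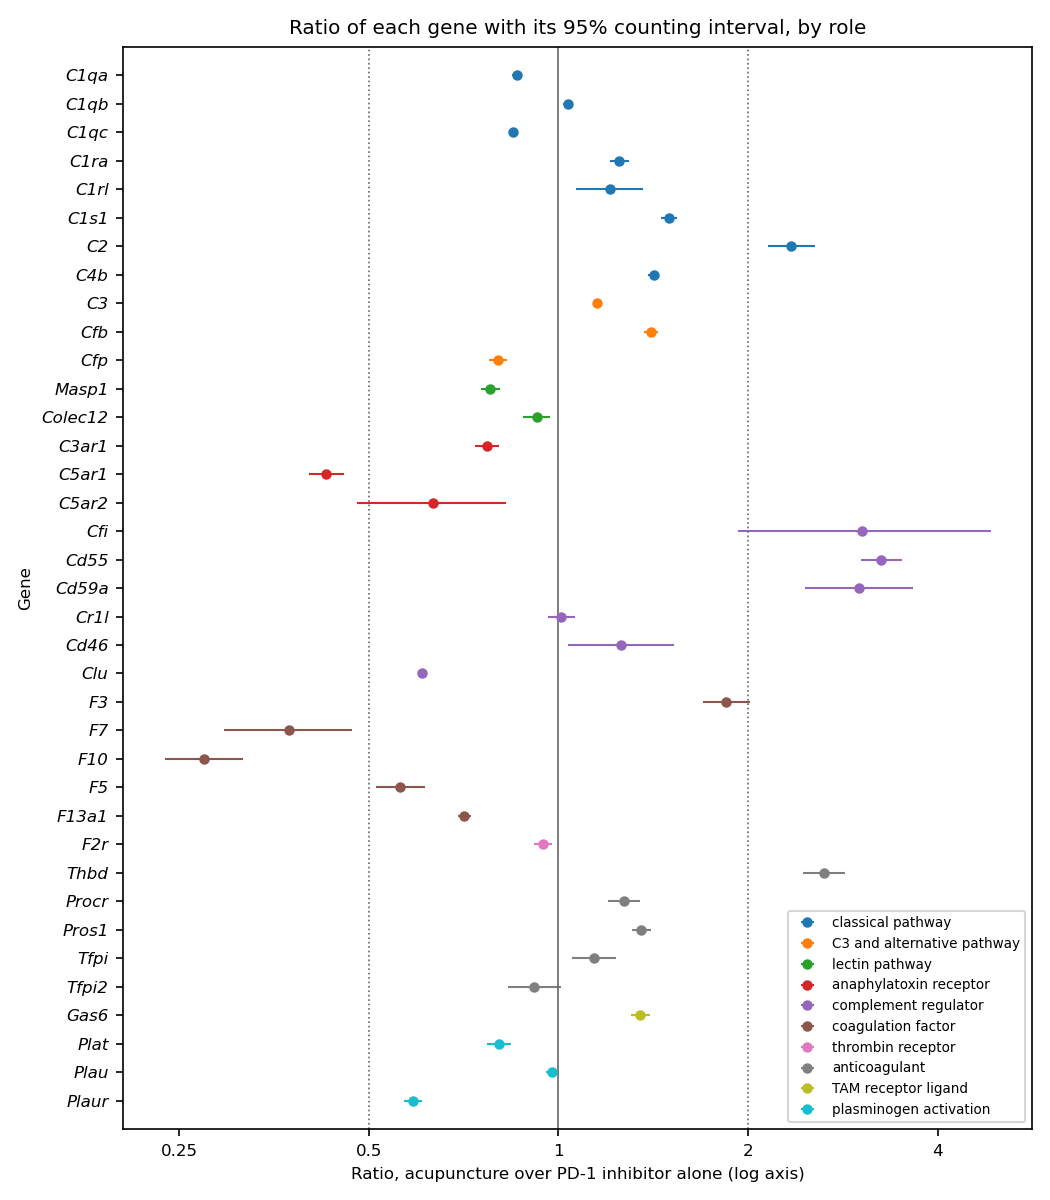
Ratio of each gene, acupuncture over PD-1 inhibitor alone, on a log axis with the exact 95% counting interval as a bar, coloured by role, with dotted lines at 0.5 and 2. Cd55, Cfi, Cd59a, Thbd and C2 lie to the right of 2, and F10, F7 and C5ar1 lie to the left of 0.5.

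Both coagulation proteases among the members were lower with acupuncture. Factor X, F10, the protease that converts prothrombin to thrombin, was at 13.3 and 3.64 CPM, 3.65-fold lower (3.18 to 4.22), the lowest ratio among the members. Factor VII, F7, which binds tissue factor, was at 3.92 and 1.46 CPM, 2.68-fold lower (2.13 to 3.40). F7 and F10 are adjacent, and the next gene, Proz, was at 0.931 and 1.46 CPM (1.57, 1.17 to 2.12), so the run of low ratios did not extend to it. Against Csf1r, F10 was 2.93-fold lower (2.54 to 3.38). With the epithelial markers set to a median of 0, F7 was at 0.541 and no longer lower by 2-fold.

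Tissue factor, F3, the membrane protein that starts coagulation, was at 9.51 and 17.6 CPM (1.85, 1.69 to 2.02), just short of 2-fold. The count of F3 over F7 went from 2.43 to 12.02, a 4.95-fold difference (3.89 to 6.31). Factor V, F5, the cofactor of factor X, was at 18.7 and 10.5 CPM (0.561, 0.513 to 0.613). F13a1, the transglutaminase chain that crosslinks fibrin and that macrophages and platelets make, was at 208 and 147 CPM (0.709, 0.692 to 0.726). The platelet marker Pf4 was at 49.5 and 14.03 CPM, and the part of platelets in the F5 and F13a1 values was not tested. The count of F13a1 over Csf1r was 1.135 and 1.003, a ratio of 0.883 (0.853 to 0.915). The thrombin receptor F2r was at 98.7 and 93.2 CPM (0.944, 0.914 to 0.975), and scaling by total counts put it at 1.01.

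Of the 5 anticoagulants among the members 1 (20%) was higher with acupuncture and none lower, against 9.21% and 4.9% of all genes tested. Thrombomodulin, Thbd, which turns thrombin towards activating protein C, was at 10.2 and 27.0 CPM, 2.64-fold higher (2.44 to 2.86). Procr, the receptor that presents protein C, was at 26.2 and 33.3 CPM (1.27, 1.20 to 1.35). Pros1, the protein S cofactor, was at 66.9 and 90.6 CPM (1.35, 1.31 to 1.40). Tfpi, the inhibitor of tissue factor, was at 14.6 and 16.6 CPM (1.14, 1.05 to 1.23), and its relative Tfpi2 was at 11.4 and 10.4 CPM (0.915, 0.830 to 1.01), an interval that spans 1.

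The endothelium list had 1 of 10 genes lower and none higher, with a median log2 ratio of -0.59. Its ratios were above 1 for 2 genes, Tek at 1.47 and Kdr at 1.20, and below 1 for 8. Pecam1 was at 95.3 and 71.3 CPM. The count of Thbd over Pecam1 went from 0.107 to 0.379, a 3.53-fold difference (3.24 to 3.84) that holds for this 1 marker. The part of endothelium in the Thbd value was not tested. Cd93, the gene beside Thbd, was at 85.0 and 52.3 CPM (0.615, 0.591 to 0.640). Cd93 was chosen after its values were seen. Gas6, which is related to protein S and activates the receptors Axl, Tyro3 and Mertk, was at 69.6 and 93.9 CPM (1.35, 1.30 to 1.40). The count of Gas6 over Pros1 was 1.04 in both libraries, a ratio of 0.996 (0.948 to 1.05). Of the receptors, Mertk was at 15.4 and 6.75 CPM, 2.28-fold lower (2.05 to 2.55), and Axl at 526 and 561 CPM.

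The urokinase receptor and its ligand differed in their ratios. Plau, urokinase, was at 230 and 225 CPM (0.976, 0.956 to 0.997), and its direction turned under scaling by total counts, at 1.05. Plaur, the receptor that holds urokinase at the cell surface, was at 128 and 75.0 CPM (0.587, 0.568 to 0.607). Plat, tissue plasminogen activator, was at 62.0 and 49.9 CPM (0.805, 0.771 to 0.840). The count of Plaur over Plau went from 0.555 to 0.334, 1.66-fold lower (1.60 to 1.73). The hypoxia list had 9 of 10 genes lower, with a median log2 ratio of -1.26 and summed CPM of 5492 and 2559, and its part in the Plaur value was not tested.

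Genes of plasminogen activation outside the members were measured too. Serpinb2, an inhibitor of the plasminogen activators, was at 6.73 and 1.03 CPM, 6.51-fold lower (5.05 to 8.54). The protease trap A2m was at 4.69 and 0.826 CPM, 5.68-fold lower (4.26 to 7.71). Plasminogen itself, Plg, had 0 counts in both libraries.

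A wider list of 74 other complement and coagulation genes had 72 in the table and 55 with enough counts. Of these 10 were higher and 6 lower, or 18.2% and 10.9% against the 9.21% and 4.9% of all genes. The list was chosen with earlier results of these data known, so its shares are descriptions only. At a count minimum of 100, 6 were higher and 6 lower. Cr2, the complement receptor of B cells and follicular dendritic cells, had 8 and 662 counts and was 134-fold higher (67.7 to 312), in the library where all 10 B cell markers were higher. Vitronectin, Vtn, which binds the pore complex and clots, was at 1.195 and 9.62 CPM, 8.05-fold higher (6.61 to 9.86). The pore component C7 had 21 and 93 counts, 7.19-fold higher (4.44 to 12.2). Serpina10, the inhibitor that acts with protein Z, had 7 and 106 counts (24.6-fold, 11.5 to 62.6), antithrombin, Serpinc1, had 35 and 88 (4.08-fold, 2.73 to 6.22) and factor VIII, F8, had 73 and 117 (2.60-fold, 1.92 to 3.53). The thrombin receptor F2rl3 was lower, at 2.36 and 1.16 CPM (2.03-fold, 1.56 to 2.68).

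Of the 7 complement regulators tested in this wider list, 3 (42.9%) were higher and none lower, against 9.21% and 4.9% of all genes. With 7 genes these shares are coarse, and Cd59b and Csmd1 leave the list at a count minimum of 100. Besides Vtn the higher ones were Cd59b and Csmd1, a membrane protein with complement control domains. Cd59b was at 23 and 30 counts (2.12-fold, 1.19 to 3.82). Csmd1 was at 0 and 64 counts, 34.6-fold higher against a floor of 3 counts per library. The lower limit of its interval was 27.3. Serping1, the C1 inhibitor, was at 107 and 204 CPM (1.90, 1.85 to 1.95) and passed 2-fold under scaling by total counts, at 2.04. It was chosen after its values were seen. The integrin chains of complement receptors 3 and 4, Itgam and Itgax, were at 114 and 67.5 CPM and at 35.5 and 25.2 CPM, with ratios of 0.592 and 0.709, beside C5ar1 at 0.428 and C3ar1 at 0.770. These genes too were chosen after their values were seen.

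**Figure D4:**
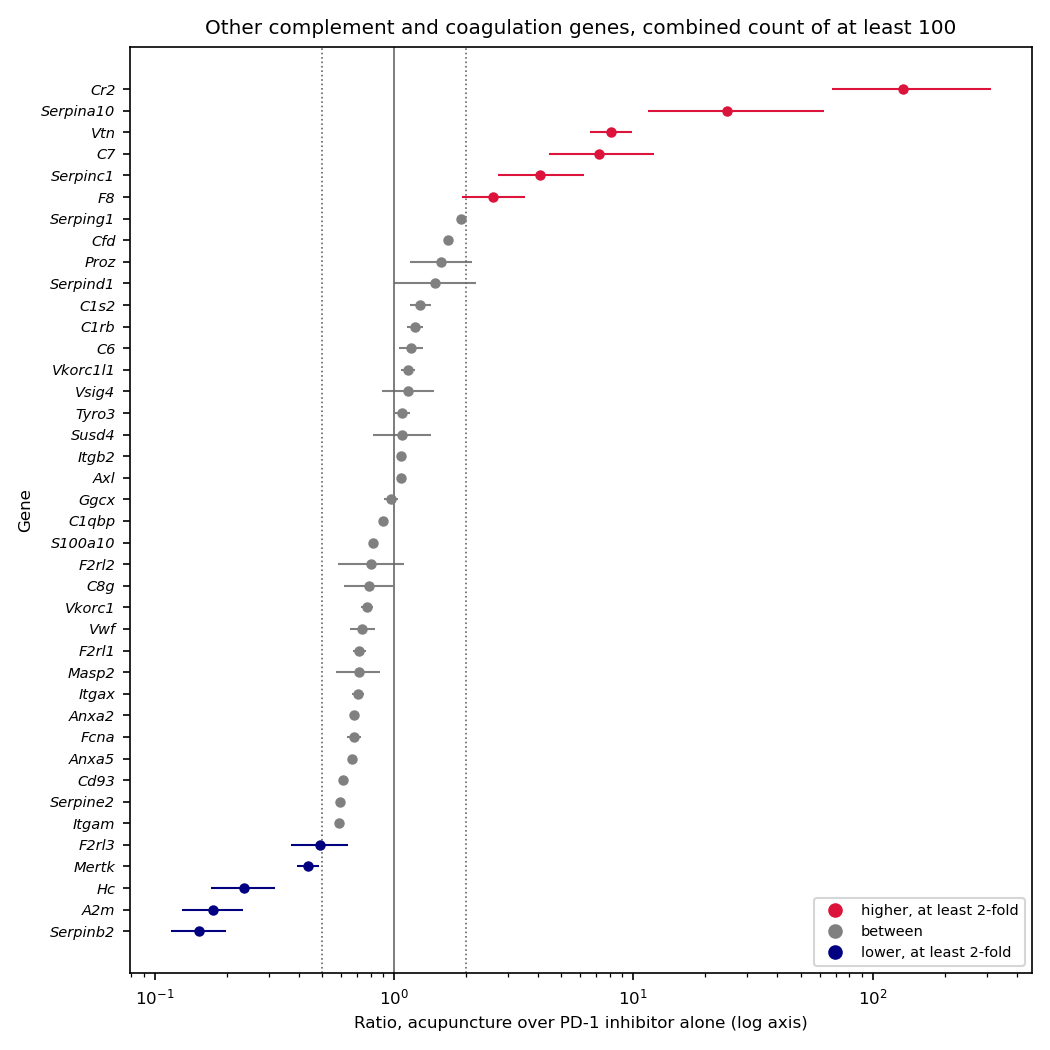
Ratio, acupuncture over PD-1 inhibitor alone, with the exact 95% counting interval, of 40 other complement and coagulation genes with 100 or more counts over both libraries, on a log axis with dotted lines at 0.5 and 2. Cr2 lies farthest to the right at 134 and Serpinb2 farthest to the left at 0.154.

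The choice of scaling shifts every ratio together. Scaling by total counts moved the median log2 ratio of all genes by 0.10, and setting the epithelial markers to a median of 0 moved it by 0.53. The share of higher genes among all genes called was 65.3% under the main scaling and 90.8% with the epithelial markers set to 0. Relative to all genes the members' median stayed at 0.02 in both of those scalings. Under the epithelial scaling 9 members were higher, the added ones being C1s1, C4b, Cfb and F3, and F10 alone was lower. The members whose ratio turned from below to above 1 there were C1qa, C1qc, Cfp, Masp1, Colec12, C3ar1, F13a1, F2r, Tfpi2, Plat and Plau. Among the other pathway genes, Mertk and F2rl3 were no longer lower by 2-fold under it, at 0.635 and 0.712. F2rl3 also fell short by total counts, at 0.527, and with the deeper library thinned, at 0.512.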

How the data were processed

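Messenger RNA of mouse breast tumour tissue was sequenced in 1 library per treatment. The authors deposited raw read counts per gene symbol, 1 column per library, with no normalization. Per the submitters' processing notes the builds GRCm39 and mm39 were named. For the aligner, counting program and strand, no source used here has a name or setting, so reads of overlapping genes cannot be separated. Per the labels' protocols, RNA was taken with a column kit and libraries were made with a SMARTer kit.

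Total counts were 105728292 and 60752043. TMM factors came from edgeR 4.0.16 in R 4.3.3 and were 0.966 and 1.04. Log2 ratios carry a prior count of 2. Genes entered with a combined count of at least 20. Intervals are exact Clopper-Pearson (95%) from the split of the combined count, intervals of a ratio between 2 genes within a library use the normal approximation on the log scale, and the limit for 0 is 3 counts. All intervals cover counting error only and take reads as independent. Reads lack molecular identifiers, so copies of 1 molecule are not set apart and the intervals may be too narrow. The 29 gene pairs compared within libraries were chosen after counts were seen. Exon lengths are unions from GENCODE M21 (GRCm38) and gene neighbours follow RefSeq on GRCm38.p6. The promoter strand was checked for all 32 member windows. In 27 of them, the 7 printed ones included, bases after the start matched a GENCODE transcript of the gene on the same strand. The windows without a match were kept in the motif counts. The calculation was tested on simulated data that held counting error only, so that test says nothing on variation between animals. Scripts ran in Python 3.11.15 (scipy 1.17.1, numpy 2.4.6, pandas 2.3.3; figures with matplotlib 3.10.9).

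Members and lists were chosen with earlier results of these data known. Named genes were all members, other pathway genes called with a combined count of at least 100 (up to 12 each way) and up to 3 abundant genes per marker list. Any other gene named, such as close copies, genomic neighbours and genes at 0 counts, was chosen after its values were seen. Scaling by upper quartile, DESeq2 1.42.0 size factors, total counts or the epithelium list, thinning of the deeper library, other prior counts, count minimums and fold limits, and calls without the interval were tried as alternatives. Some genes that the rule names are left out and not reported here.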

Additional observations from a re-analysis of the deposited data

How the results depend on the processing

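With 1 library per group, only counting error and the choice of scaling can be examined. No member called higher or lower changed direction under any of the 7 scalings, thinnings and prior counts tried. The counts of members, 5 higher and 3 lower, were the same under scaling by total counts, DESeq2 size factors, upper quartile and thinning of the deeper library. They became 9 higher and 1 lower with the epithelium list set to 0, 0 and 0 at a 4-fold limit, and 6 higher and 7 lower at a 1.5-fold limit. The median log2 ratio of the members, 0.02, was 0.12 by total counts, 0.55 with the epithelium list set to 0 and -0.0093 at a count minimum of 100, where only Cfi drops out. Of the other pathway genes, 10 were higher and 6 lower. The higher ones became 15 with the epithelium list set to 0 and 6 at a count minimum of 100. They were 7 at a 4-fold limit and 13 at a 1.5-fold limit. The lower ones became 3 both with the epithelium list set to 0 and at a 4-fold limit, and 9 at a 1.5-fold limit. The median of the other pathway genes, 0.09, was 0.19 by total counts, 0.59 with the epithelium list set to 0 and -0.093 at a count minimum of 100. Scaling shifts every ratio by 1 factor, and stricter limits or minimums leave fewer genes. Below about 100 combined counts, as for Cfi, intervals are wide. No paired analysis was possible because each group has 1 library.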
